A study of Mus musculus with 12 samples.

Results

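Transcripts of collagen chains, and of the proteins that modify, fold and trim them, were followed in osteocyte-like mouse cells treated with parathyroid hormone (PTH), treated with PF431396 or lacking PDE8A, each against vehicle-treated cells. The members were every gene whose symbol is Col, a type number, the letter a and a chain number, together with 20 named genes for enzymes and folding helpers. They numbered 44 of the 12003 named genes in the 3 deposited tables. Of these, 9 encode fibrillar chains, 3 encode chains of basement membrane collagens (Col4a5, Col15a1 and Col18a1), 12 encode other chains and 20 encode enzymes or helpers. All 44 were listed in the PTH table and in the PF431396 table. The PDE8A knockout (KO) table listed 41, without Col15a1, Col22a1 and Col23a1. No listed gene had fewer than 11 estimated counts in a library. In the PTH table the same vehicle libraries held Col22a1 at 22.2 to 67.0 normalised estimated counts per kb of exon. Col15a1 was at 11.0 to 33.6 there and Col23a1 at 5.16 to 7.44. Whether these genes fell in KO cells cannot be read, so falls there may be undercounted. Another 20 annotated chain genes, among them Col2a1, Col4a1, Col4a2 and Col10a1, were in none of the tables and were not analysed here.

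Collagens are built from chains that wind around each other in the endoplasmic reticulum. Before winding, prolyl 4-hydroxylases hydroxylate prolines, which lets the helix hold at body temperature, and lysyl hydroxylases modify lysines that later carry sugars and cross-links. Outside the cell, proteases cut off the propeptides, and fibrillar collagens assemble into fibrils. Type I collagen, made from the products of Col1a1 and Col1a2, is the main protein of bone matrix, into which osteocytes are embedded.

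RNA sequencing was done on Ocy454, an immortal mouse cell line that resembles osteocytes. The groups were wild-type cells given PTH, wild-type cells given PF431396, a small-molecule inhibitor of the kinases FAK and PYK2, PDE8A KO cells, which lack a phosphodiesterase that degrades cAMP, and wild-type cells given vehicle. Each group had 3 samples, 12 in all, and the 3 vehicle libraries served in every comparison. The column names give DMSO for the vehicle and KO libraries, and whether the cells given PTH or PF431396 had DMSO as well is not stated. Neither are doses, times or how many KO clones were used. A level below is the authors' normalised estimated count unless it is given per kb of exon, and a change is a log2 fold change against vehicle with its standard error (SE). A gene rose or fell where limma's p-value, adjusted over all genes of the table, was below 0.05 and the log2 fold change was at least 1 in size. In bulk RNA, fewer cells of a type and less RNA per cell cannot be told apart.

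The libraries held 27712579 to 35747461 estimated counts in named genes. PF431396 libraries 1 and 3 held identical values in all 11490 rows, so they were counted once and this group has n = 2. Vehicle library 1 stood apart: of the 44 members, 39 were lower in it within the PTH table than in the mean of vehicle libraries 2 and 3, with a median difference of -0.78 on the log2 scale against 0.01 over all genes. Transcripts of the mitochondrial genome took 11.8% and 13.0% of counts in the PF431396 libraries and 3.89%, 5.19% and 4.67% in the vehicle libraries of that table. Scaling every library to the same total put the median change of all genes at -0.55 in the PF431396 comparison, against -0.02 as deposited, at -0.12 in the PTH comparison, against -0.00, and left it within 0.01 of 0 in the KO comparison. All 7 osteoblast markers were listed. Of 6 osteocyte markers 3 were listed (Dmp1, Phex and Pdpn), and the defining genes Sost, Mepe and Fgf23 were not. None of the 5 adipocyte or 5 endothelial markers was listed. Of 5 muscle markers, Des and Acta1 were listed, without Myod1, Myog and Myh3. In the PTH table their sum was 3387 in vehicle library 1, where the lowest vehicle sum was 790. In KO cells Des rose (1.24) and Acta1 fell (-5.85), against 6.32% and 5.13% of all genes. With PTH and with PF431396 neither passed. The part of these markers in the collagen results was not tested.

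By group mean, the type I chains were the highest members per kb of exon in vehicle cells. In vehicle libraries of the PTH table Col1a2 stood at 25632 ± 15376 normalised estimated counts per kb (SD, n = 3) and Col1a1 at 16935 ± 9762. They were followed by P4hb, the disulfide isomerase subunit of prolyl 4-hydroxylase, at 14762 ± 1823 per kb and by Serpinh1, the collagen-specific chaperone HSP47, at 14460 ± 1762 per kb. None of these neighbours differed beyond its spread between libraries. Within each vehicle library, however, Col1a2 was above Col1a1, with ratios of 1.39, 1.54 and 1.52. Ppib, the prolyl isomerase cyclophilin B, stood at 8104 ± 1152 per kb, and Col5a2, a type V chain of the same fibrils as type I, at 6871 ± 2746. In the KO libraries, within their own table, the order of the means was different. There P4hb led with 18840 ± 367 per kb, Serpinh1 had 16993 ± 386, Col1a2 had 15982 ± 2130, Ppib had 15892 ± 766 and Col1a1 had 13863 ± 1733 (SD, n = 3). Vehicle library 1 of that table held the same order: P4hb 13050, Serpinh1 13015, Col1a2 8492, Ppib 6987 and Col1a1 6165 per kb. In the KO libraries Serpinh1, Col1a2 and Ppib lay within their spread between libraries, as did Col1a2 and Col1a1. Within each KO library Col1a2 was above Col1a1, with ratios of 1.15, 1.18 and 1.13.

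**Figure D1:**
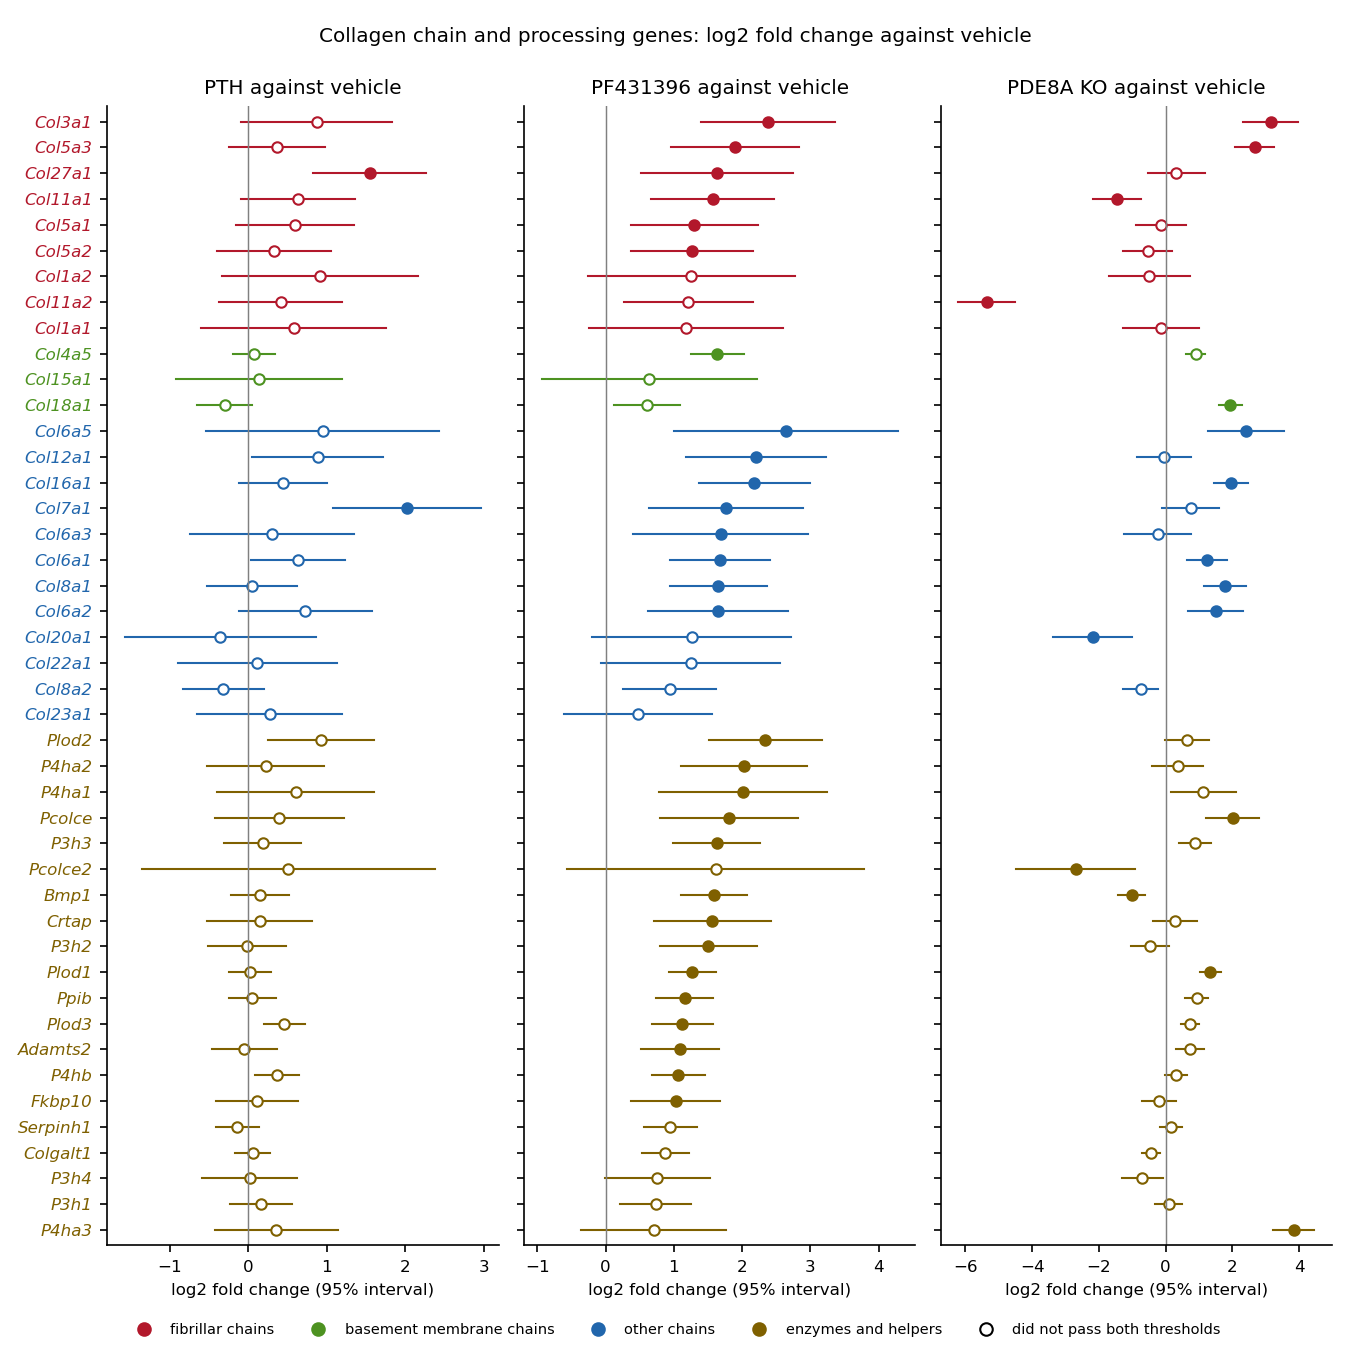
Log2 fold change of each listed member against vehicle with its 95% interval, in a panel each for PTH, PF431396 and PDE8A KO; genes run down the page by class, and filled points passed both thresholds. In the PTH panel 2 points are filled, in the PF431396 panel 29, all to the right of 0, and in the KO panel 16, of which 11 lie to the right and 5 to the left.

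With PTH, 2 of 44 members rose and none fell. Both encode chains of low level: Col27a1, a fibrillar chain known from cartilage, and Col7a1, the chain of the anchoring fibrils that hold epithelia to the tissue beneath. Over all genes tested, 2.86% rose and 1.01% fell. The type I chains did not pass, and none of the 20 enzymes or helpers did.

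Col27a1 was at 78.3, 71.9 and 115 in PTH libraries, against 32.8, 25.8 and 28.8 in vehicle libraries. Every PTH library lay above every vehicle library, and the change was 1.54 ± 0.31 (limma adjusted p = 0.0283), a 2.92-fold higher level. Col7a1 was at 148, 316 and 193 with PTH and 67.7, 32.5 and 58.7 with vehicle. The groups did not overlap, and the change was 2.02 ± 0.40 (adjusted p = 0.0284), or 4.05-fold. Each call held in 1 of 6 fits that left out a library, the one without vehicle library 1, in which 3.18% of all genes rose. Sox9, the only 1 of 7 chondrocyte markers listed in that table, was at 759.9, 792 and 759.4 with PTH and 209, 316 and 432 with vehicle, with no overlap and a rise of 1.33 ± 0.26 (adjusted p = 0.0283). The osteoblast markers summed to 84011 to 93794 with PTH and 25562.5 to 89681 with vehicle, the lowest in library 1. Of the listed osteocyte markers, Pdpn rose by 2.91, against 2.86% of all genes. The changes of Dmp1 and Phex were negative and did not pass in the main fit. The osteocyte markers summed to 2012 to 2332 with PTH and 634 to 1968 with vehicle, again lowest in library 1. The part of these markers in the result was not tested.

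Among the bone fibril chains, Col1a1 was at 141417, 115548 and 124998 in PTH libraries and 35015, 121203 and 145060 in vehicle libraries. The PTH values lay within the range of the vehicle values, whose library 1 was far below the others. The change was 0.58 with a 95% interval of -0.60 to 1.75 (adjusted p = 0.521). Without vehicle library 1 it was -0.06. Col1a2 was at 234649, 205699 and 225901 with PTH and 45348, 173810 and 206081 with vehicle. Its groups overlapped narrowly, with a change of 0.92 (95% interval -0.33 to 2.17, adjusted p = 0.335), and 0.23 without vehicle library 1. Other fibrillar chains did not pass either: Col3a1, the type III chain of stretchable tissue, changed by 0.87 ± 0.41 (adjusted p = 0.245), Col5a1 by 0.60 ± 0.32 (adjusted p = 0.299), Col5a2 by 0.32 (adjusted p = 0.562) and Col11a1, a type XI chain of thin fibrils, by 0.63 (adjusted p = 0.257).

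Col12a1, the chain of a collagen that binds to the surface of fibrils, was at 12548, 11368 and 13976 with PTH and 3727, 8386 and 10186 with vehicle. Col6a1, a chain of the beaded microfibrils of type VI, was at 14941, 14479 and 17643 with PTH and 6618, 11712 and 13143 with vehicle. For both genes all PTH libraries lay above all vehicle libraries, with changes of 0.88 and 0.64 that did not pass (adjusted p = 0.184 each). In all, 11 of 44 members had every PTH library above every vehicle library, against 19.0% of all genes, and 1 had every PTH library below, against 16.8%. That member was Col18a1, whose product yields endostatin, at 509, 531 and 419 with PTH and 578, 624 and 592 with vehicle (change -0.30, adjusted p = 0.267).

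Plod2, the lysyl hydroxylase of the telopeptides where bone cross-links form, was at 6173, 5603 and 7052 in PTH libraries and 2036, 4077 and 4316 in vehicle libraries. All PTH values were the higher ones, and the change was 0.92 ± 0.29 (95% interval 0.25 to 1.60, adjusted p = 0.106). Plod3, which also attaches sugars to hydroxylysine, was at 5532, 4659 and 5333 with PTH and 3648, 3596 and 4048 with vehicle. Its groups did not overlap, with a change of 0.46 ± 0.11 (adjusted p = 0.0537). P4hb was at 53000, 52351 and 57022 with PTH and 36291, 46047 and 44360 with vehicle, again with no overlap and a change of 0.36 ± 0.12 (adjusted p = 0.115). Serpinh1 was at 31532, 30726 and 33221 with PTH and 30357, 37655 and 37965 with vehicle, with a change of -0.14 (adjusted p = 0.49). The prolyl 4-hydroxylase subunits P4ha1 and P4ha2 changed by 0.60 (adjusted p = 0.427) and 0.22 (adjusted p = 0.711), and Pcolce, the enhancer of C-propeptide removal, by 0.39 (adjusted p = 0.533). For P3h1, Crtap, Bmp1, Fkbp10, Colgalt1, Ppib, Plod1 and Adamts2 the changes lay between -0.05 and 0.16, and those of Fkbp10, Colgalt1, Ppib and Plod1 turned negative with equal totals.

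The median change of the 44 members was 0.31, against -0.00 over all genes, with 38 positive and 6 negative values. Without vehicle library 1 the median was 0.00, with 22 positive and 22 negative values, and with equal totals 30 were positive. The fibrillar chains had a median of 0.60 (0.19 without vehicle library 1) and the enzymes and helpers a median of 0.15 (-0.04 without it).

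**Figure D2:**
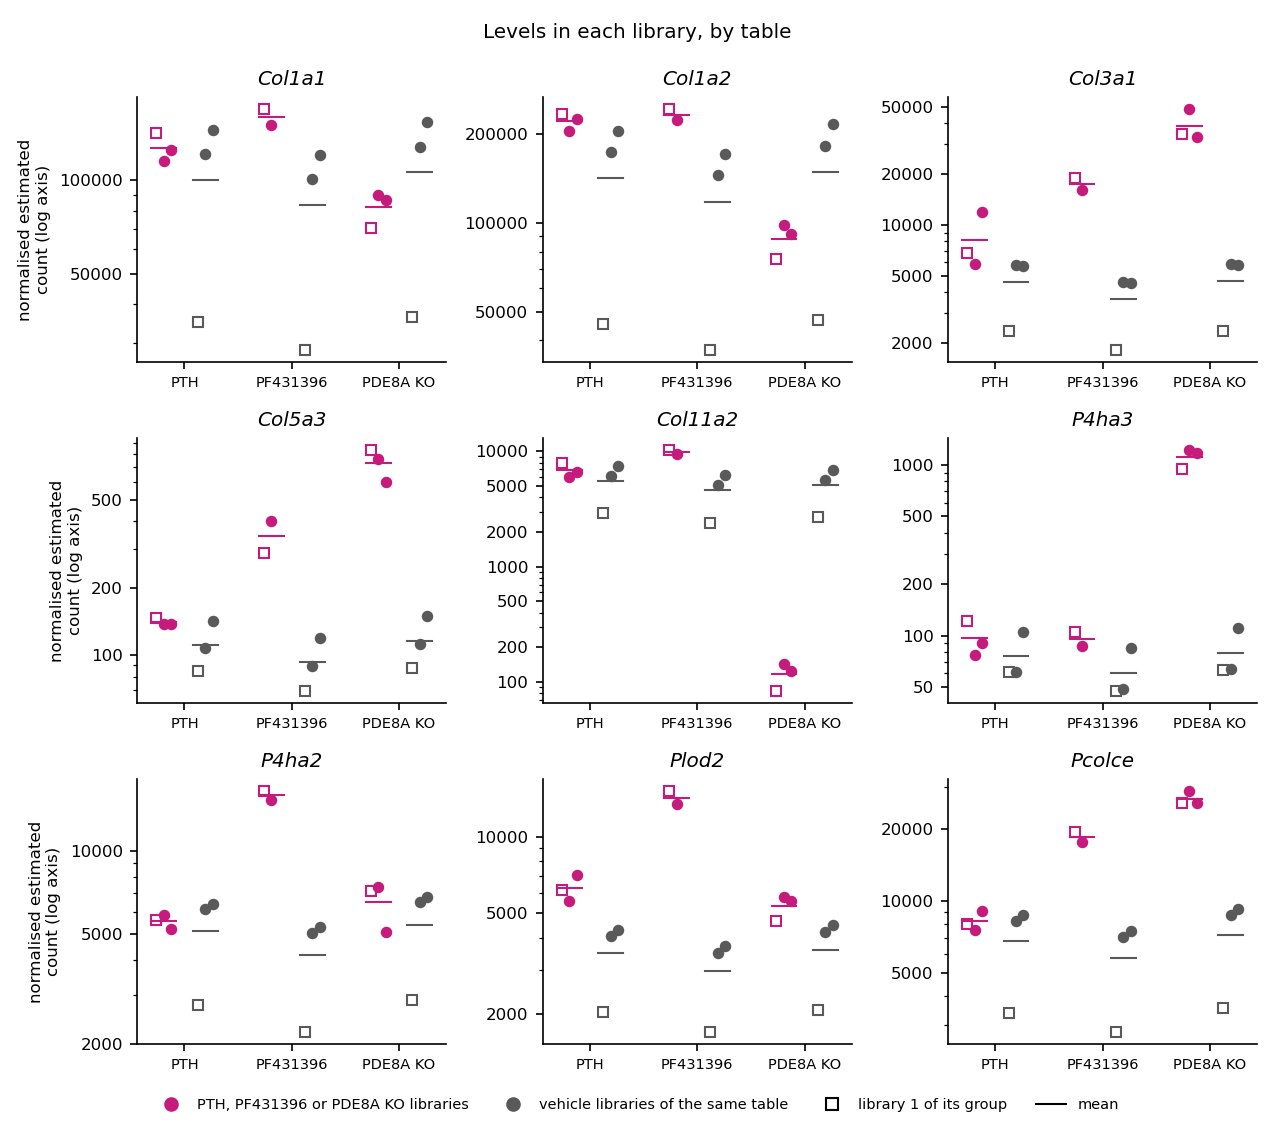
Normalised estimated counts (log axis) of 9 members in each library, with a panel per gene and, in each of the 3 comparisons, the treated or KO libraries in pink left of the vehicle libraries in grey; squares mark library 1 and lines the group means. Col3a1, Col5a3, Pcolce and P4ha3 lie far above vehicle in KO cells, and Col11a2 lies far below. Vehicle library 1 is the lowest vehicle library for Col1a1, Col1a2, Col3a1, Col5a3, Col11a2, P4ha2, Plod2 and Pcolce.

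With PF431396, 29 of 44 members rose and none fell, against 10.9% of all genes that rose and 15.2% that fell. The risen members were 6 of 9 fibrillar chains, 1 of 3 basement membrane chains, 8 of 12 other chains and 14 of 20 enzymes and helpers. Col3a1 was 5.20-fold higher, Plod2 was 5.06-fold higher, and the enzymes of proline hydroxylation, lysine hydroxylation and propeptide removal each had risen members. The type I chains and Serpinh1 were higher in every PF431396 library but did not pass. The median change was 1.40 over the members and -0.02 over all genes.

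Col3a1 was at 18832 and 16200 in PF431396 libraries and 1828, 4582 and 4515 in vehicle libraries. The groups lay far apart, and the change was 2.38 ± 0.41 (limma adjusted p = 0.00764). Col5a3, a minor type V chain, was at 288 and 401 with PF431396 and 69.2, 89.6 and 119.6 with vehicle, a rise of 1.90 ± 0.39 (adjusted p = 0.0125). Col11a1 was at 15671 and 17248 with PF431396 and 3191, 7525 and 7106 with vehicle, a rise of 1.57 ± 0.38 (adjusted p = 0.0209). Col5a1 and Col5a2, whose products set the width of type I fibrils, rose by 1.30 (adjusted p = 0.04) and 1.27 (adjusted p = 0.0385). Col27a1 rose by 1.63 ± 0.47 (adjusted p = 0.0349). The type V calls on Col5a1 and Col5a2 were lost without vehicle library 1.

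Col1a1 was at 169081 and 150319 in PF431396 libraries and 28616, 101024 and 121009 in vehicle libraries. Both PF431396 values were above every vehicle value, but the vehicle values were widely spread, and the change was 1.18 with a 95% interval of -0.24 to 2.6 (adjusted p = 0.158). Col1a2 was at 243526 and 223187 with PF431396 and 37136, 145166 and 172259 with vehicle, and changed by 1.26 (95% interval -0.26 to 2.77, adjusted p = 0.158). Without vehicle library 1 the changes of Col1a1 and Col1a2 were 0.53 and 0.56, with adjusted p of 0.0123 and 0.00741, below the fold threshold. Col11a2, the other minor type XI chain, changed by 1.21 (adjusted p = 0.0511).

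Of the basement membrane chains, Col4a5, a type IV chain, was at 4192 and 4179 in PF431396 libraries and 1228, 1399 and 1423 in vehicle libraries. The values were tightly grouped on both sides, and the rise was 1.63 ± 0.16 (adjusted p = 0.00262). Col15a1 overlapped between groups, and Col18a1 changed by 0.60 (adjusted p = 0.0571).

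Among the other chains, Col12a1 was at 22883 and 28288 with PF431396 and 2970, 6813 and 8282 with vehicle, a rise of 2.21 ± 0.43 (adjusted p = 0.0107). Col16a1, which encodes a chain found at fibril surfaces, was at 3110 and 5048 with PF431396 and 598, 1034 and 1080 with vehicle, a rise of 2.18 ± 0.34 (adjusted p = 0.00578). The type VI chains rose together: Col6a1 by 1.68 ± 0.30 (adjusted p = 0.00883), Col6a2 by 1.64 ± 0.43 (adjusted p = 0.0267) and Col6a3 by 1.68 (adjusted p = 0.0478). Col6a5, another type VI chain, was at 189.8 and 625 with PF431396 and 104, 41.6 and 37.5 with vehicle. Its PF431396 libraries differed widely from each other but both lay above the vehicle libraries, and the rise was 2.64 ± 0.68 (adjusted p = 0.0263). Col7a1 and Col8a1, a short chain of sheet-forming type VIII, rose by 1.77 (adjusted p = 0.0288) and 1.65 ± 0.30 (adjusted p = 0.00849).

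Prolyl 4-hydroxylase is built from a catalytic subunit, the product of P4ha1, P4ha2 or P4ha3, and the P4hb subunit. P4ha1 was at 26075 and 23133 in PF431396 libraries and 2792, 8797 and 9108 in vehicle libraries, a rise of 2.02 ± 0.51 (adjusted p = 0.0248). P4ha2 was at 16398 and 15261 with PF431396 and 2210, 5032 and 5275 with vehicle, a rise of 2.03 ± 0.38 (adjusted p = 0.00993). For both genes the lower PF431396 library was well above the highest vehicle library. P4hb, at 73625 and 72519 with PF431396 and 29729, 38472 and 37093 with vehicle, rose by 1.07 ± 0.16 (adjusted p = 0.00537). P4ha3 changed by 0.70 (adjusted p = 0.244).

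P4ha1 and P4ha2 are known targets of the hypoxia-inducible factors, whose response element holds the core ACGTG. The 250 bases before the start of each gene are shown because both rose with PF431396 and both windows hold that core. Sequences are from RefSeq on GRCm38.p6, given 5′ to 3′ on the gene's strand, with the core in capitals (read as CACGT where it lies on the opposite strand). Starts are those of RefSeq, and the GENCODE annotation used elsewhere starts P4ha2 upstream, at 54100095, so its window lies inside that gene model. P4ha1 is at chr10:59323046-59323295 on the plus strand, with the core ending near the start on the opposite strand, and P4ha2 is at chr11:54100674-54100923 on the plus strand, with the core on the given strand.
P4ha1: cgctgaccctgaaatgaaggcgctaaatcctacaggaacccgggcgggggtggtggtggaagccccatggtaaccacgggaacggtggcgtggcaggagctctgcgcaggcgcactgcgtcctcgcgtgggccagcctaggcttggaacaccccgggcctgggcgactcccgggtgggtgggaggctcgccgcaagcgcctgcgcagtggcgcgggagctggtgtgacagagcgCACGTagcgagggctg
P4ha2: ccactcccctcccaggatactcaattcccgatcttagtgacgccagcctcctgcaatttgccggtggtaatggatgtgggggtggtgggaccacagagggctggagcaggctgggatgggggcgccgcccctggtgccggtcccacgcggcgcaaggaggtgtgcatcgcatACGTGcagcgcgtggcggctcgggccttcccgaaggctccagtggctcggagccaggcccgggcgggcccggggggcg
On either strand, the core was in 16.6% of the 32851 RefSeq windows of this length. It was in 10 of the 35 members with a window (28.6%). A member counted once if any of its windows matched, so these shares are not strictly alike. Of the other members with the core, Col5a1, P4hb, Plod3 and Ppib rose with PF431396, and Col1a2, Col11a2, P3h1 and Serpinh1 did not pass. A match describes these letters and not a bound site.

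The prolyl 3-hydroxylation complex consists of P3h1, Crtap and Ppib. Crtap was at 6233 and 7249 with PF431396 and 1370, 2931 and 2921 with vehicle, a rise of 1.56 (adjusted p = 0.0174). Ppib rose by 1.16 ± 0.17 (adjusted p = 0.00552), and P3h1 changed by 0.73 (adjusted p = 0.0413), below the fold threshold. The related 3-hydroxylases P3h2 and P3h3 rose by 1.5 ± 0.30 (adjusted p = 0.0113) and 1.63 ± 0.27 (adjusted p = 0.00654).

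All 3 lysyl hydroxylase genes rose. Plod2 was at 15087 and 13389 in PF431396 libraries and 1712, 3495 and 3704 in vehicle libraries, a rise of 2.34 ± 0.34 (adjusted p = 0.00516). Plod1, the hydroxylase of the helical region, was at 5507 and 5759 with PF431396 and 2353, 2258 and 2399 with vehicle, a rise of 1.27 ± 0.14 (adjusted p = 0.00293). Vehicle library 1 did not stand apart for Plod1. Plod3 rose by 1.13 ± 0.18 (adjusted p = 0.00648). Colgalt1, which adds galactose to hydroxylysine, changed by 0.87 (adjusted p = 0.00631), below the fold threshold.

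Of the propeptide genes, Bmp1, the C-proteinase, was at 11289 and 11837 with PF431396 and 3061, 4030 and 4593 with vehicle, a rise of 1.59 ± 0.20 (adjusted p = 0.0036). Pcolce was at 19464 and 17657 with PF431396 and 2827, 7013 and 7442 with vehicle, a rise of 1.81 ± 0.42 (adjusted p = 0.0189). Adamts2, the N-proteinase, rose by 1.09 (adjusted p = 0.0157). Of the chaperones, Fkbp10, a prolyl isomerase that acts with Plod2, rose by 1.02 (adjusted p = 0.0283). Serpinh1 was at 57186 and 56249 with PF431396 and 25033, 31669 and 31956 with vehicle. Its groups were well apart, but the change of 0.95 ± 0.16 (adjusted p = 0.00711) was below the fold threshold.

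All 44 changes were positive under the deposited scaling, but 43 with equal totals, where Col23a1 was at -0.05, 43 without PF431396 library 2, where Col15a1 was at -0.036, and 41 with equal totals and no vehicle library 1. Under the deposited scaling 41 members had both PF431396 libraries above every vehicle library, against 31.8% of all genes. None had both below, against 34.0% of all genes. With equal totals 15 members rose and none fell, with a median of 0.87 against -0.55 over all genes, where 3.0% of all genes rose and 30.2% fell. The 15 were Col3a1, Col5a3, Col4a5, Col6a1, Col6a5, Col8a1, Col12a1, Col16a1, P4ha1, P4ha2, Crtap, P3h3, Plod2, Bmp1 and Pcolce. Without vehicle library 1, 25 members rose (10.4% of all genes), and the calls on Col5a1, Col5a2, P4hb, Fkbp10 and Adamts2 were lost. With both changes together, an alternative chosen after seeing the data, 10 members rose (2.36% of all genes). Leaving out PF431396 library 1 left 9 members called (6.47% of all genes higher), leaving out library 2 left 6 (4.96%), and Col4a5, P3h3, Plod1, Plod2 and Bmp1 were called in every fit that left out a library. Of 7 chondrocyte markers, Sox9, Matn3 and Comp were listed. Only Comp rose (2.36, and 1.83 with equal totals), against 10.9% (3.0%) of all genes. These markers summed to 368 to 539 with PF431396 and 280 to 411 with vehicle. The summed osteoblast markers were at 141627 to 153524 with PF431396 and 20970.5 to 75163 with vehicle. The part of the mitochondrial share and of these markers was not tested.

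**Figure D3:**
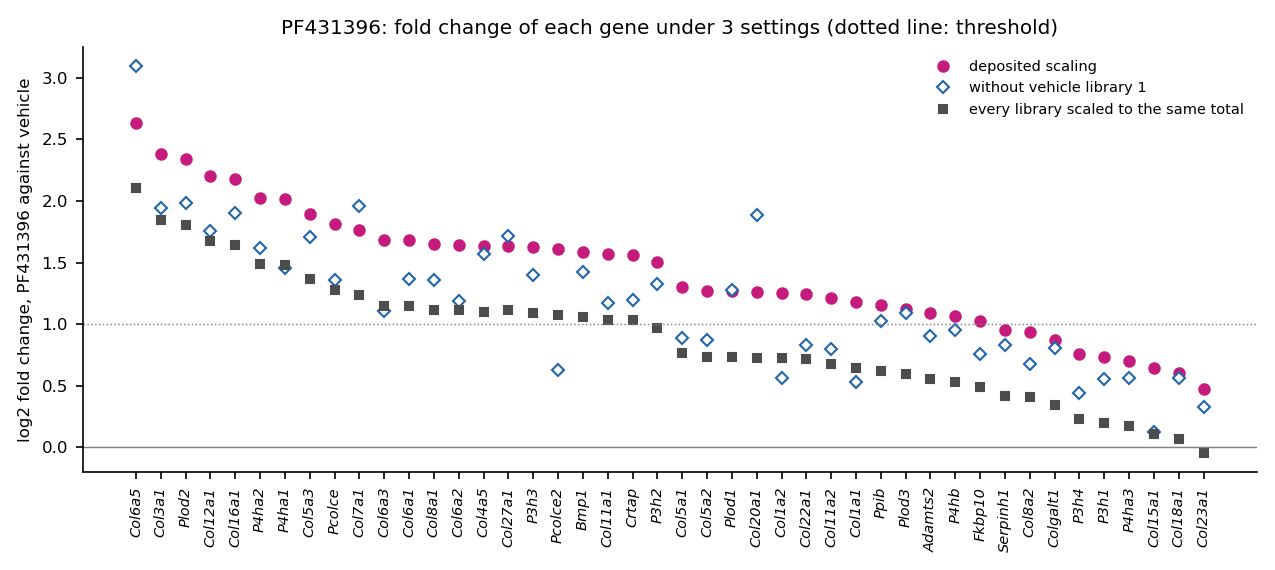
Log2 fold change of each member in PF431396 against vehicle libraries under the deposited scaling, without vehicle library 1, and with library totals made equal. The values with equal totals are the lowest for most members, with a median of 0.87 against 1.40 under the deposited scaling, and Col23a1 alone is below 0 there.

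In share of all counts, the chains other than type I took 0.773% and 0.76% in PF431396 libraries and 0.227%, 0.474% and 0.528% in vehicle libraries. The enzymes and helpers took 0.801% and 0.772% with PF431396 and 0.383%, 0.529% and 0.540% with vehicle. Both shares were above every vehicle library. The type I chains took 1.16% and 1.05% with PF431396 and 0.274%, 0.986% and 1.18% with vehicle, so vehicle library 3 had the highest share.

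**Figure D4:**
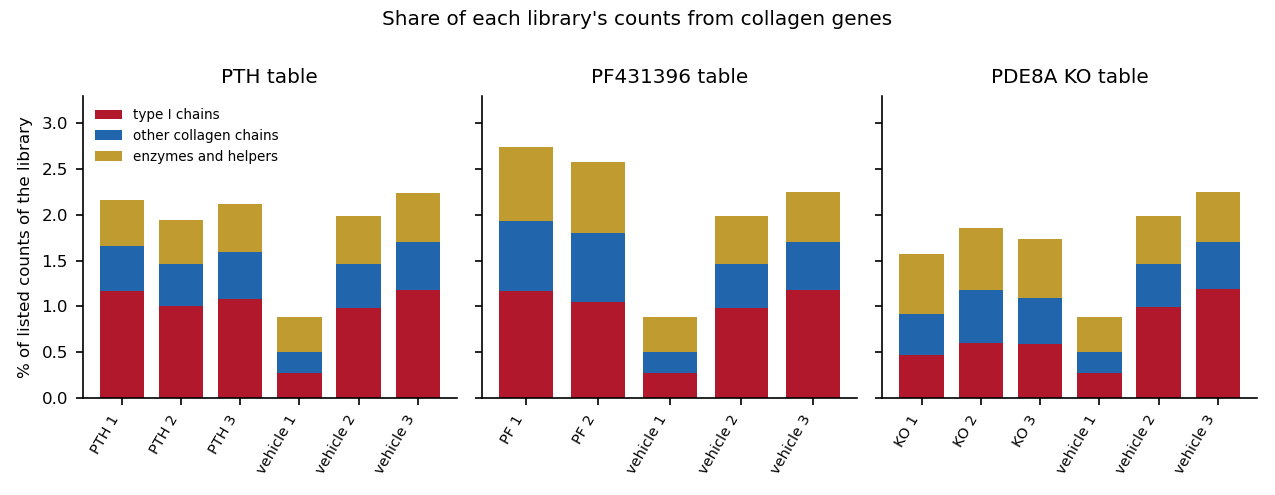
Percent of each library's counts taken by type I chains, other chains, and enzymes and helpers, stacked, with PTH, PF431396 and PDE8A KO libraries each left of the vehicle libraries of their table. Vehicle library 1 has the smallest type I share, 0.274% in the PTH table, and chains other than type I reach 0.773% in a PF431396 library.

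In PDE8A KO cells, Pde8a itself was at 2074, 2438 and 2037, against 3100, 2579 and 2890 in vehicle libraries. Every KO value was below every vehicle value, with a change of -0.39 ± 0.14 (limma adjusted p = 0.0681). The labels do not say where the deletion lies, so the transcript level does not check it.

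In KO cells the members split: 11 of 41 rose and 5 fell, against 6.32% and 5.13% of all genes. Among fibrillar chains Col3a1 and Col5a3 rose while Col11a1 and Col11a2 fell. P4ha3, a catalytic subunit of prolyl 4-hydroxylase of low level in vehicle cells, was 14.3-fold higher, and Col11a2 was 41.2-fold lower. Among basement membrane chains Col18a1 rose, among other chains 5 rose and Col20a1 fell, and among enzymes and helpers P4ha3, Plod1 and Pcolce rose while Bmp1 and Pcolce2 fell.

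Col3a1 was at 34565, 48333 and 32982 in KO libraries, against 2353, 5858 and 5770 in vehicle libraries. The lowest KO value was several times the highest vehicle value, and the rise was 3.15 ± 0.35 (adjusted p = 0.00105), or 8.85-fold. Col5a3 was at 835, 764 and 600.3 in KO and 87.3, 112 and 149 in vehicle libraries, a rise of 2.67 ± 0.26 (adjusted p = 0.000603), or 6.35-fold. Both calls held in every fit that left out a library.

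The type XI chains went down. Col11a2 was at 84, 142 and 125 in KO libraries and 2705, 5710 and 6938 in vehicle libraries. The groups were more than an order of magnitude apart, with a change of -5.37 ± 0.36 (adjusted p = 0.000169). Col11a1, which encodes its partner chain, was at 2230, 2647 and 2381 in KO and 3820, 8943 and 8442 in vehicle libraries, a change of -1.45 ± 0.31 (adjusted p = 0.0128).

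The windows before the starts of these fibrillar genes are shown because their transcripts moved furthest among the fibrillar chains and in opposite directions. They are from RefSeq on GRCm38.p6, 5′ to 3′ on the gene's strand. Capitals mark matches of letters, whose place was not checked against a working promoter element. They are TATAAA in Col3a1, beginning 117 bases before the RefSeq start, and CCAAT in Col5a3, beginning 122 bases before. In Col11a2 they are TATAAA, beginning 143 bases before the RefSeq start, and the ACGTG core read on the opposite strand as CACGT. Col3a1 (ENSMUSG00000026043) is at chr1:45311288-45311537 on the plus strand, Col5a3 (ENSMUSG00000004098) at chr9:20815068-20815317 on the minus strand and Col11a2 (ENSMUSG00000024330) at chr17:34038888-34039137 on the plus strand, where GENCODE starts the gene further downstream, at 34039437.
Col3a1: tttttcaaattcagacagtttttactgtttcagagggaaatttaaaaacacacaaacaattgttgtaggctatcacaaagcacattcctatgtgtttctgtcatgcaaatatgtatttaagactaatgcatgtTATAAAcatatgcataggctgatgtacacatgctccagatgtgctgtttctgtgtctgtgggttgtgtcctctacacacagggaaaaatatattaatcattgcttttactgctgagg
Col5a3: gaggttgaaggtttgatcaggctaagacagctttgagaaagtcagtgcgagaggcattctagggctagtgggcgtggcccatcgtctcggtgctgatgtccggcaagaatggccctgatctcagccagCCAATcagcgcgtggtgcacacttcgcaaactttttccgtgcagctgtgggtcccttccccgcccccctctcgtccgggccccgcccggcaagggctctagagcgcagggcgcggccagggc
Col11a2: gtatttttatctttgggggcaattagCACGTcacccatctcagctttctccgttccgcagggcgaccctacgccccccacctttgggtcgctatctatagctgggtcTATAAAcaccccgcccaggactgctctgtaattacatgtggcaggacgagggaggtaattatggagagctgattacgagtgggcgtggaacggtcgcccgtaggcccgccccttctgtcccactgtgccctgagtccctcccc
On either strand, TATAAA was in 12.4% of all windows and in 4 of the 35 members with a window (11.4%). CCAAT was in 33.8% of all windows and in 11 of these members (31.4%). Here too a member counted once if any of its windows matched. The full cAMP response element TGACGTCA was in 1.55% of all windows and in none of the member windows. No match says only that these letters are not in this window.

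The type I chains did not pass in KO cells. Col1a1 was at 70469, 89594 and 86556 in KO libraries and 36556, 128146 and 153457 in vehicle libraries. The KO values lay between vehicle library 1 and the other vehicle libraries, and the change was -0.13 (95% interval -1.27 to 1.00, adjusted p = 0.859). Col1a2 was at 75367, 98314 and 91461 in KO and 46962, 182285 and 216252 in vehicle libraries, with a change of -0.48 (95% interval -1.70 to 0.73, adjusted p = 0.515). Without vehicle library 1 the changes were -0.78 for Col1a1 (adjusted p = 0.00252), below the fold threshold, and -1.18 for Col1a2 (adjusted p = 0.000321), past both thresholds. Col5a1 changed by -0.15 (adjusted p = 0.759) and Col5a2 by -0.54 (adjusted p = 0.23).

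Col18a1 was at 2280, 2982 and 2299 in KO libraries and 623, 682 and 648 in vehicle libraries. The vehicle values were close together, library 1 included, and the rise was 1.94 ± 0.15 (adjusted p = 0.000284). Col4a5 changed by 0.90 (adjusted p = 0.00247), below the fold threshold.

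Of the other chains, Col16a1 was at 4563, 4390 and 4314 in KO libraries and 780.4, 1338 and 1398 in vehicle libraries, a rise of 1.96 ± 0.22 (adjusted p = 0.00113). Col8a1 was at 6140, 9298 and 8803 in KO and 1554, 2950 and 2716 in vehicle libraries, a rise of 1.78 ± 0.27 (adjusted p = 0.00366). Col6a5 was at 199, 321 and 516 in KO and 114, 45 and 41.3 in vehicle libraries, a rise of 2.41 ± 0.48 (adjusted p = 0.0104). In each of these genes the groups were apart. Col6a1 rose by 1.23 ± 0.26 (adjusted p = 0.0128) and Col6a2 by 1.51 ± 0.35 (adjusted p = 0.0184). Col6a3 was at 12779, 13624 and 11557 in KO and 6682, 20809 and 23427 in vehicle libraries, and its change of -0.23 did not pass (adjusted p = 0.712). Col20a1 was at 64.5, 90.7 and 65.5 in KO and 801, 223 and 206 in vehicle libraries, where library 1 was the highest, and fell by 2.18 ± 0.51 on the log2 scale (adjusted p = 0.0183). Col12a1 changed by -0.04 (adjusted p = 0.937).

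P4ha3 (ENSMUSG00000051048) was at 947, 1217 and 1168 in KO libraries, against 63.3, 64 and 110.5 in vehicle libraries. The values were far apart, and the rise was 3.83 ± 0.27 (adjusted p = 0.000181). P4ha1, the more abundant catalytic subunit, was at 16646, 18808 and 14256 in KO and 3472, 10861 and 11240 in vehicle libraries, with no overlap and a change of 1.13 ± 0.42 that did not pass (adjusted p = 0.0811). P4ha2 and P4hb changed by 0.36 and 0.31 and did not pass. Plod1 was at 7513, 8537 and 6283 in KO and 2946, 2807 and 2982 in vehicle libraries, a rise of 1.34 ± 0.14 (adjusted p = 0.000808). Plod2 changed by 0.65 (adjusted p = 0.125) and Plod3 by 0.74 (adjusted p = 0.00437), below the fold threshold. Ppib was at 14904, 13549 and 14074 in KO and 6232, 8277 and 8042 in vehicle libraries, with a change of 0.93 ± 0.14 (adjusted p = 0.00397) that was below the fold threshold too.

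The genes of propeptide removal moved both ways. Pcolce was at 25557, 28748 and 25697 in KO libraries and 3544, 8728 and 9261 in vehicle libraries, a rise of 2.01 ± 0.34 (adjusted p = 0.00557). Its paralog Pcolce2 was at 148, 91.6 and 72.8 in KO and 166, 1034 and 1589 in vehicle libraries, a change of -2.69 ± 0.77 (adjusted p = 0.0361). The KO values of Pcolce2 were all below vehicle library 1, the lowest of its group, by a small margin. Bmp1 was at 2149, 2139 and 2634 in KO and 3733, 4879 and 5558 in vehicle libraries, a change of -1.02 ± 0.18 (adjusted p = 0.00602). Adamts2 changed by 0.73 (adjusted p = 0.0241), below the fold threshold. Of the chaperones and remaining enzymes, Serpinh1 changed by 0.16 (adjusted p = 0.418), Fkbp10 by -0.19, P3h1 by 0.09, Crtap by 0.29 and Colgalt1 by -0.43 (adjusted p = 0.0308), none past both thresholds.

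Over the 41 members the median change was 0.32, against -0.00 over all genes, with 21 members whose KO libraries all lay above the vehicle libraries, against 25.4% of all genes, and 7 whose KO libraries all lay below, against 24.4%. The medians were -0.15 for fibrillar chains, 0.99 for other chains and 0.33 for enzymes and helpers. All 16 calls held with equal totals, where 6.27% of all genes rose and 5.19% fell. Without vehicle library 1, 15 of the 16 calls held and Col6a1, at 0.93, did not, while Col1a2, Col8a2 and P3h4 were added as lower, so that 10 rose and 8 fell (6.03% and 6.09% of all genes). Leaving out another library left fewer falls: 1 without KO library 1 (3.61% of all genes), 2 without KO library 2 (3.93%) or library 3 (4.5%), and 3 without vehicle library 2 (4.89%) or library 3 (4.98%). The calls on Col3a1, Col5a3, Col11a2, Col18a1, Col6a5, Col8a1, Col16a1, P4ha3, Plod1 and Pcolce held in every fit that left out a library, while Bmp1 was called in 2 of 6 and Pcolce2 in 1 of 6. The 7 osteoblast markers summed to 27641.8 to 42958 in KO libraries and 26195 to 93186 in vehicle libraries, with Alpl, Bglap, Bglap2, Ibsp and Sp7 past both thresholds as lower, and 2 of 7 chondrocyte markers were listed, Sox9 and Matn3, without Col2a1 or Acan. Sox9, the master regulator of cartilage cells, rose by 1.33 ± 0.32 in KO cells (adjusted p = 0.0193), and the chondrocyte markers summed to 661 to 1113 in KO libraries and 314 to 490 in vehicle libraries. Of the 3 listed osteocyte markers, Dmp1 and Phex fell and Pdpn rose in KO cells, with changes from -3.86 to 2.45. Of all genes, 5.13% fell and 6.32% rose. The osteocyte markers summed to 802 to 1197 in KO libraries and 582 to 1844 in vehicle libraries. The part of the osteoblast, chondrocyte and osteocyte markers in the collagen results was not tested.

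PF431396 and KO cells were compared with the same vehicle libraries, in tables normalised apart, so each comparison's values are given side by side without a test between them. Col3a1 changed by 2.38 with PF431396, 3.15 in KO cells and 0.87 with PTH. Pcolce changed by 1.81, 2.01 and 0.39 in that order of groups. Col11a1 changed by 1.57 with PF431396, -1.45 in KO cells and 0.63 with PTH. Bmp1 changed by 1.59 with PF431396, -1.02 in KO cells and 0.15 with PTH. P4ha3 changed by 0.70 with PF431396, 3.83 in KO cells and 0.36 with PTH, and Plod2 by 2.34, 0.65 and 0.92.

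Ratios between partner genes within a library do not depend on its overall scaling. They were computed on levels per kb and compared without a test, since an exact permutation test of 3 against 3 libraries cannot go below p = 0.1. Col3a1 over Col1a1, the balance of type III to type I, was 0.523, 0.575 and 0.406 in KO libraries, against 0.0686, 0.0487 and 0.0401 in vehicle libraries. In PF431396 libraries it was 0.119 and 0.115, against 0.0681, 0.0483 and 0.0398, and in PTH libraries 0.0514, 0.0539 and 0.101, against 0.0715, 0.0508 and 0.0418. The KO and PF431396 ratios lay above every vehicle ratio, and the PTH ratios overlapped them.

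Col11a2 over Col11a1 was 0.0467, 0.0667 and 0.0649 in KO libraries and 0.878, 0.792 and 1.02 in vehicle libraries. With PF431396 it was 0.81 and 0.682, against 0.936, 0.844 and 1.09. Both comparisons had all ratios below vehicle, with a far wider gap in KO cells. Col1a2 over Col1a1, chains that join at a fixed ratio in type I collagen, was 1.15, 1.18 and 1.13 in KO libraries, against 1.38, 1.53 and 1.51 in vehicle libraries. With PTH it was 1.78, 1.91 and 1.94, against 1.39, 1.54 and 1.52. Thus KO ratios lay below every vehicle ratio and PTH ratios above, with vehicle library 1 close to its group although both of its chains were low.

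Col6a1 over Col6a3 was 4.73, 5.59 and 5.15 in KO libraries and 2.70, 1.55 and 1.55 in vehicle libraries. P4ha3 over P4ha1 was 0.0992, 0.113 and 0.143 in KO libraries and 0.0318, 0.0103 and 0.0171 in vehicle libraries. In PF431396 libraries P4ha3 over P4ha1 was 0.007 and 0.00655, against 0.0297, 0.00967 and 0.0162. The P4ha3 ratio was thus above every vehicle ratio in KO cells and below every one with PF431396. P3h1 over Crtap, partners in 1 complex, was 0.275 and 0.255 with PF431396 and 0.612, 0.388 and 0.443 with vehicle.

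**Figure D5:**
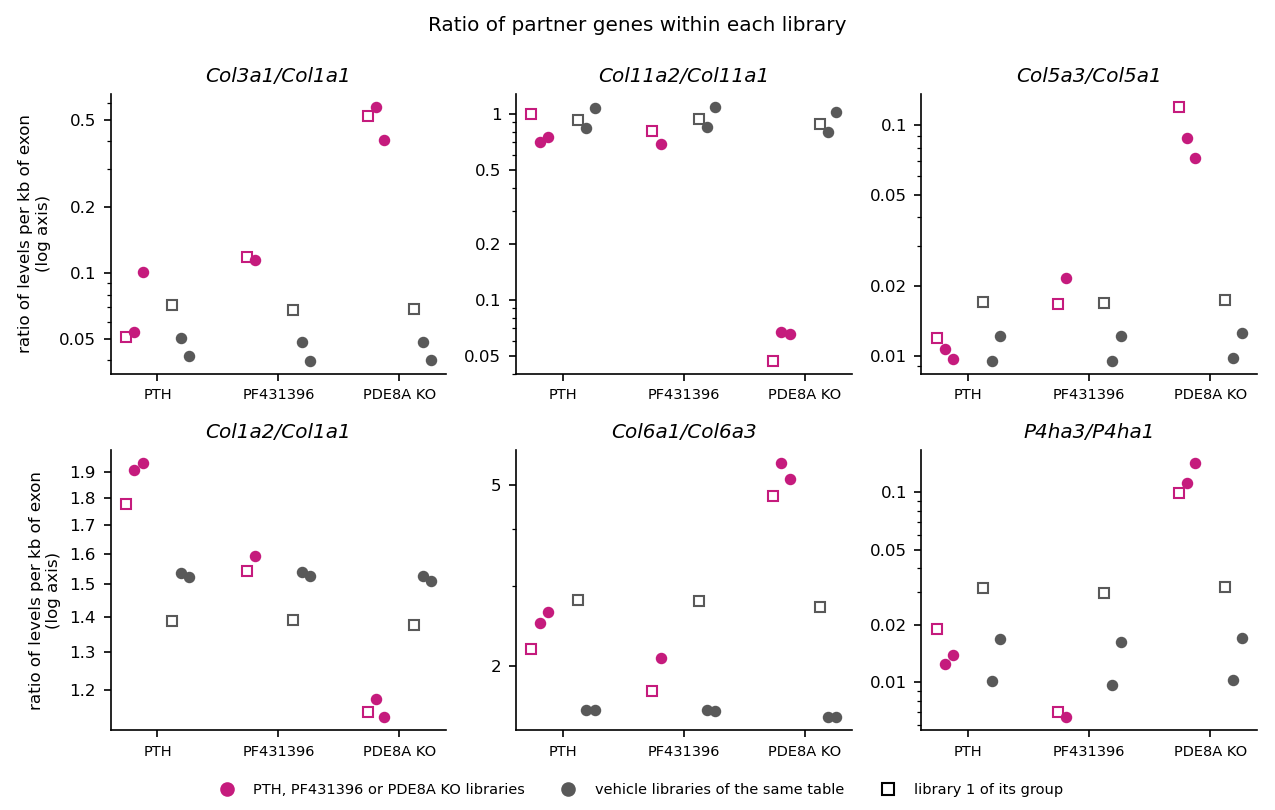
Ratios of levels per kb (log axis) between partner genes in each library, with a panel per ratio. In each comparison the treated or KO libraries are in pink, left of the vehicle libraries in grey, and squares mark library 1. Col3a1 over Col1a1 is 0.406 to 0.575 in KO libraries and Col11a2 over Col11a1 is 0.0467 to 0.0667, both far outside their vehicle values.

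Other genes of the collagen pathway were counted from lists. Of 7 listed genes of collagen breakdown, 2 rose with PTH, 6 with PF431396 (5 with equal totals) and 5 in KO cells, against 2.86%, 10.9% (3.0%) and 6.32% of all genes, and none fell. Mmp2, a gelatinase, rose by 1.80 ± 0.18 with PTH (adjusted p = 0.00198), 1.92 with PF431396 (adjusted p = 0.00262) and 1.89 in KO cells (adjusted p = 0.000607). Mmp13, a collagenase of bone, rose by 3.67 ± 0.44 with PTH (adjusted p = 0.00409). In KO cells Mmp13 changed by -1.05 ± 0.47 (adjusted p = 0.128), and it passed as lower without vehicle library 1 (-1.60, adjusted p = 0.000743). Ctsk, the collagen-degrading cathepsin of osteoclasts, rose by 2.32 with PF431396 (adjusted p = 0.00262), and Ctsl, another lysosomal cathepsin, by 1.63 in KO cells (adjusted p = 0.00056). Of 6 macrophage and osteoclast markers, Cd68 and Ctsk were listed, and both rose with PF431396, where Cd68 changed by 2.57 ± 0.36 (adjusted p = 0.00457), also with equal totals. The sum of both markers was 3703 to 4809 with PF431396 and 708 to 865 with vehicle, and 1685 to 3300 in KO libraries and 869 to 1073 in vehicle libraries, while Ptprc, Csf1r, Acp5 and Adgre1 were not listed. The part of such cells in these results was not tested.

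Of 11 cross-linking and fibril-binding genes, 1 rose with PTH, 10 with PF431396 (4 with equal totals) and 4 in KO cells, where Loxl4 and Postn fell. The shares of all genes that rose were 2.86%, 10.9% (3.0%) and 6.32%, and 5.13% fell in KO cells. Dcn, which encodes decorin, a proteoglycan that coats fibrils, rose by 5.71 ± 0.29 in KO cells (adjusted p = 7.49e-05). Thbs2, a matricellular protein gene, rose by 1.58 ± 0.12 with PTH (adjusted p = 0.000559), 1.57 with PF431396 (adjusted p = 0.00287) and 2.38 in KO cells (adjusted p = 0.000157). Fn1, the fibronectin gene, rose by 1.17 with PF431396 (adjusted p = 0.00301), where it did not pass with equal totals, and changed by 0.43 with PTH (adjusted p = 0.0311).

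Of 9 collagen receptor genes, 1 rose with PTH, 5 with PF431396 (1 with equal totals) and 4 in KO cells, where Itga10 fell, against 2.86%, 10.9% (3.0%) and 6.32% of all genes that rose. In KO cells 5.13% of all genes fell. Itga11, an integrin subunit for fibrillar collagen, rose by 2.89 ± 0.46 with PTH (adjusted p = 0.0125), and Ddr1 changed by 0.36 there (adjusted p = 0.0641). Itgb1, the shared beta subunit, rose by 1.28 with PF431396 (adjusted p = 0.00262). Mrc2, the endocytic collagen receptor, rose by 1.28 with PF431396 (adjusted p = 0.00443) and 1.48 in KO cells (adjusted p = 0.000513), where the integrin subunit gene Itga10 changed by -2.82 (adjusted p = 0.000409). With PF431396 Itga10 rose by 1.24 ± 0.27 (adjusted p = 0.0158), and with equal totals it did not pass (0.70). Itgb1 and Mrc2 did not pass with equal totals either, and the 1 receptor gene that rose there was Adgrg1.

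Of 17 genes for export of collagen from the endoplasmic reticulum, none rose in any comparison. Of all genes, 2.86% rose with PTH, 10.9% with PF431396 and 6.32% in KO cells. With PF431396 only Klhl12, an adaptor for large transport carriers, fell (-1.04, adjusted p = 0.0342), against 15.2% of all genes, and with equal totals 3 fell, against 30.2% of all genes. Tfg and Mbtps1 changed by -0.80 (adjusted p = 0.0146) and 0.60 (adjusted p = 0.0167). In KO cells Sec23a, a coat protein gene, fell (-1.03, adjusted p = 0.00817), against 5.13% of all genes, while Sar1a, at -0.998, was just short of the fold threshold. With equal totals 2 fell in KO cells, against 5.19%. With PTH the lowest adjusted p was that of Sec24d, 0.0169 at a change of 0.75, followed by Kdelr2 (0.41, adjusted p = 0.063).

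Of 14 other folding and cofactor genes, 1 rose with PTH, 2 rose and 1 fell with PF431396 (none rose and 2 fell with equal totals) and none passed in KO cells. Over all genes, 2.86% rose with PTH, and with PF431396 10.9% rose and 15.2% fell (3.0% and 30.2% with equal totals). Slc23a2, an ascorbate transporter whose cargo the hydroxylases need, rose by 1.45 ± 0.13 with PTH (adjusted p = 0.00128) and changed by -0.76 in KO cells (adjusted p = 0.0133). Furin, which activates the proteinases, changed by -1.18 with PF431396 (adjusted p = 0.00753) and by 0.69 with PTH (adjusted p = 0.0407). Fkbp9 rose by 1.18 with PF431396 (adjusted p = 0.00516), and Fkbp14 changed by -0.90 in KO cells (adjusted p = 0.00996). Of the drug targets, Ptk2 was at 2199 and 3201 with PF431396 and 2569, 2448 and 2539 with vehicle, with a change of 0.08 (adjusted p = 0.788). Ptk2b was at 80.3 and 37.3 with PF431396 and 11.3, 17.6 and 33.9 with vehicle, and did not pass. Pde8a was at 6474, 6702 and 6592 in PTH libraries and 3019, 2481 and 2779 in vehicle libraries, a rise of 1.26 (adjusted p = 0.00101).

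By the same thresholds, the authors' deposited table of the PTH comparison called the same 2 members, and that of the KO comparison the same 16. The authors' deposited table of the PF431396 comparison called 31 members, of which 28 were also called here. It added Col11a2, Col22a1 and Col1a2, the last at a log2 fold change of 1.00 with an adjusted p of 0.049, and left out Fkbp10. That table has 3 PF431396 columns, of which a pair is identical, so the authors' values may rest on 3 libraries where 2 were counted here.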

How the data were processed

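RNA was sequenced from 12 samples in 4 groups of 3. The authors used FastQC 0.11.5, Salmon, DESeq2 and the build GRCm38, per the submitters' processing notes, which give no version of Salmon or DESeq2. The per-library signal in the 3 tables the authors deposited is a normalised estimated count, that is, an estimated count divided by a size factor. The deposited log2 fold changes and the deposited adjusted p-values were used only to count the authors' calls, and the deposited −log10 column was not used. Rows that named no gene held at most 0.0249% of a library's counts and were left out, as were 1036792 empty rows of the PTH table.

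Each table was fitted alone with limma 3.58.1 (trend and robust, with statmod 1.5.0, R 4.3.3) on log2(value + 1), with 2 groups per fit and Benjamini-Hochberg adjustment over all 11775 (PTH), 11484 (PF431396) or 11592 (KO) genes. Such folds understate the change of low genes. The fit was tested on simulated data. Since the labels do not say that libraries are separate cultures, p-values measure the spread between these libraries, which may be technical. Values per kb used the exon length in GENCODE's annotation of GRCm38, and near-identical or overlapping genes could share reads. Named genes were the members past both thresholds (up to 12 per direction), a fixed set of main chains and enzymes, up to 2 genes of each pathway list with the smallest adjusted p, and Pde8a, Ptk2 and Ptk2b. Genes named beside these, such as Plod3, P3h2, P3h3, Col4a5, Col6a2 and Col8a1 in some comparisons, were chosen after their values were seen. The members and lists were chosen with earlier results of these data known. Alternatives were equal library totals, a pseudocount of 10, a minimum mean of 100, limma without trend, a replicate block, adjusted p alone and leaving out each library. Promoter windows were those of RefSeq, found for 35 of 44 members. Figures were drawn with matplotlib 3.10.9, and tables made with numpy 2.4.6 and pandas 2.3.3, in Python 3.11.15.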

Additional observations from a re-analysis of the deposited data

How the results depend on the processing

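Members past both thresholds numbered 2 with PTH, 29 with PF431396 and 16 in KO cells. With PTH they numbered 1 at a mean level of at least 100. With equal totals the PF431396 count was 15, and 10 when vehicle library 1 was also left out. Leaving out 1 library gave 0 to 2 members with PTH, 6 to 30 with PF431396 and 10 to 18 in KO cells. Over all genes, the counts were 456, 3005 and 1328. They were 219 to 614, 1756 to 2917 and 967 to 1405 with 1 library left out, and 908, 4265 and 3223 by adjusted p alone, and 3814 with equal totals in the PF431396 comparison (344 higher and 3470 lower, against 1257 and 1748). A fit with the replicate block gave 0, 33 and 15 members, and 403, 2749 and 1305 of all genes. With PF431396, block 3 held vehicle library 3 alone. The changes there were thus those of the fit without vehicle library 3, with a member median of 1.64 in both. Across genes, the deviations of libraries with the same number had r of -0.0479 to 0.0317 in the PTH table. They had r of -0.0178 and -0.00688 in the PF431396 table and 0.0623 to 0.099 in the KO table. In the KO table each library correlated best with its own number, a hint from the data and not the design. With n = 2 the deviations of the PF431396 libraries mirror each other, so that table cannot show pairing. Weak correlations do not exclude pairing, and the labels do not state any. A fit that leaves PF431396 with 1 library assumes that it varies like the vehicle group. With equal totals the PTH changes of Colgalt1 (-0.065), Fkbp10 (-0.011), Plod1 (-0.095) and Ppib (-0.068) turned negative. Leaving out 1 library turned the sign of changes that did not pass: with PTH, Adamts2 (-0.23 to 0.063), Bmp1 (-0.0077 to 0.27), Col1a1 (-0.064 to 0.96), Col5a2 (-0.060 to 0.57), Colgalt1 (-0.00051 to 0.084), Crtap (-0.21 to 0.32), Fkbp10 (-0.15 to 0.27), P3h1 (-0.0084 to 0.29), P4ha2 (-0.18 to 0.435), Pcolce (-0.048 to 0.635), Plod1 (-0.059 to 0.083) and Ppib (-0.073 to 0.12), and in KO cells, Col12a1 (-0.49 to 0.25), Col1a1 (-0.78 to 0.26), Col5a1 (-0.555 to 0.073), Crtap (-0.074 to 0.47), P3h1 (-0.080 to 0.23) and P4ha2 (-0.047 to 0.575). The cause was not tested. The edgeR and DESeq2 alternatives on recovered counts were not run. With n = 2 or 3, the interval of Col1a1 spans more than 2 log2 units.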

Other observations

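Some members lie next to each other in the GRCm38 annotation. Col3a1, on the plus strand of chromosome 1 (45311538 to 45349706), ends 24614 bases from Col5a2 on the minus strand (45374321 to 45503282). In KO cells Col3a1 changed by 3.15 and Col5a2 by -0.54, and with PF431396 both rose, by 2.38 and 1.27. Col6a2 and Col6a1, on the minus strand of chromosome 10, are 85161 bases apart, and changed by 1.51 and 1.23 in KO cells and by 1.64 and 1.68 with PF431396. P3h4 and Fkbp10 lie back to back on chromosome 11 with 860 bases between them, and changed by -0.70 and -0.19 in KO cells and by 0.76 and 1.02 with PF431396.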
